A study of Mus musculus with 12 samples.

Results

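Creb3l1 and 7 genes of its activation route were followed in ET cells after exposure to the dioxin TCDD. The cells are taken here as a mouse thymic epithelial line, a name that the markers given below do not bear out. The members were the transcription factors Creb3l1, Creb3, Creb3l2 and Atf6, the proteases Mbtps1 and Mbtps2, and the coat proteins Sec23a and Sec24d, and every probe set that the platform annotation gives 1 of these symbols was taken. Of the 8 genes, 7 had probe sets, 13 in all, among the 22626 probe sets and 12393 named genes of the array. Mbtps2 had no probe set named in the annotation used here and is not analysed. Of the 13 probe sets, 12 passed the filter on low signal, a mean log2 value of 3.98, and Mbtps1 1431385_a_at did not, with values from 3.3 to 3.7. Creb3l1 was chosen by its measured TCDD difference in an earlier analysis of the same arrays, so its TCDD values are given as a description with no test. The other genes were named for their function, with earlier results of these data known.

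Creb3l1 (also called OASIS), Creb3 (Luman), Creb3l2 (BBF2H7) and Atf6 are bZIP transcription factors that are made as proteins anchored in the membrane of the endoplasmic reticulum. When released from there they travel to the Golgi in COPII-coated vesicles, where the site-1 protease Mbtps1 and then the site-2 protease Mbtps2 cut them, and the freed part enters the nucleus. Because cleavage acts on the protein, mRNA levels report the supply of these factors and not their activity. Creb3l1 and Creb3l2 are known in bone and cartilage cells for control of collagen and of secretory pathway genes, among them the COPII coat subunits Sec23a and Sec24d. TCDD binds the aryl hydrocarbon receptor, a transcription factor whose best known target is Cyp1a1.

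The sequences shown are the places in the promoters of the coat genes that hold TGACGTGG, an element known to be bound by ATF6. Both are 30-base stretches on the gene's strand from RefSeq on GRCm38.p6, with the element in capitals. The Sec23a stretch is chr12:59011993-59012022 on the minus strand, from position -5 to 25 of the transcription start, and the Sec24d stretch is chr3:123267459-123267488 on the plus strand, from -37 to -8.
Sec23a: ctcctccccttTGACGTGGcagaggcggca
Sec24d: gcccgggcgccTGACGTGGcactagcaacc
Promoter windows from 250 bases before to 50 after the start were at hand for 6 members, Creb3, Creb3l2, Mbtps1, Mbtps2, Sec23a and Sec24d, and the element was searched on both strands. It lay in 2 of the 6, the ones shown, and in 0.676% of all 32851 windows of that length. The full cyclic AMP element TGACGTCA lay in 0 of the 6 and in 1.79% of all windows. The core GCGTG of the element bound by the aryl hydrocarbon receptor lay in 5 of the 6 and in 32.4% of all windows. These matches describe the letters only.

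RNA was hybridised to 12 one-colour arrays, 2 in each of 6 groups. ET cells were exposed in culture to 5 nM TCDD or to its solvent, 1,4-dioxane at 0.05% by volume, for 2, 4 or 6 h. No group was left untreated, and the solvent share is recorded here only for the solvent arrays. The pairs are described as biological duplicates with no statement of the step at which they were separated, so p-values measure only the spread between these arrays. The values are log2 signals, and each averages a whole culture, so a smaller share of expressing cells and less RNA per cell cannot be told apart. One line was used, and other thymic or bone cells were not part of the design.

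The arrays were checked against their labels before use. The treatment field of the second 4 h TCDD array names the solvent, and the description of both 6 h solvent arrays gives 4 h; the titles set the groups here. Cyp1a1 was 9.3 to 11.1 on the 6 TCDD arrays, with 10.2 on the array of conflicting label, and 4.0 to 5.5 on the 6 solvent arrays. Of 13 markers of cortical thymic epithelium, 6 exceeded the filter (Ccl25, Ctsl, Cxcl12, Dll4, Foxn1 and Krt8), and Epcam, Krt18, Cdh1, Prss16, Cd83, Enpep and Ly75 did not. Of the other marker lists, 4 of 7 medullary, 3 of 5 haematopoietic and 13 of 13 fibroblast markers exceeded it. The filter was passed by 15844 of 22626 probe sets, so passing it does not show on its own that a gene is expressed. The median percentile of mean signal was 29.97 for the cortical list, 37.5 for the medullary and 33.4 for the haematopoietic. For the fibroblast list it was 98.8, the highest of these lists. The epithelial name of the line is thus not borne out by these markers and is used as a label only. Clustering of the arrays was cut into 4 clusters, and the largest, of 7 arrays, is called the larger set. The other 5 arrays were pooled as the smaller set. They were the second array of each 2 h and 6 h group and the first 4 h TCDD array. The metallothionein Mt1 was 9.6 to 10.8 in the smaller set and 7.1 to 7.4 in the larger, and Mt2 was 8.9 to 10.7 against 6.4 to 6.8. Each 2 h and 6 h group has 1 array in either set, so the sets are balanced there, but at 4 h only TCDD is represented in the smaller set. Some member and list values are given with the set as a block as well. The sets were found from the same values, so intervals with the block may be too narrow.

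Creb3l1 mRNA was higher on every TCDD array than on any solvent array. In solvent it was 7.5 and 7.5 at 2 h, 7.4 and 7.3 at 4 h, and 7.4 and 8.0 at 6 h. With TCDD it was 8.7 and 8.2 at 2 h, 9.1 and 9.4 at 4 h, and 9.1 and 8.9 at 6 h. The groups did not overlap at any time, and the highest solvent array was the second at 6 h.

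The Creb3l1 difference between TCDD and solvent was 0.95 ± 0.24 (SE, n = 2 per group) on the log2 scale at 2 h, or 1.93-fold. At 4 h the difference was 1.90 ± 0.24, or 3.73-fold, and 1.30 ± 0.24 at 6 h, or 2.46-fold. Averaged over the times with equal weight it was 1.38 ± 0.14, or 2.61-fold (n = 6 per group), and 1.13 without the 4 h arrays. With the array set as a block it was 1.94 at 4 h and 1.40 ± 0.14 on average. Within the larger set the differences at 2, 4 and 6 h were 1.20, 2.05 and 1.70, and within the smaller set those at 2 and 6 h were 0.70 and 0.90. Each compares 1 TCDD array with 1 solvent array, or with 2 in the larger set at 4 h. Every TCDD array lay above every solvent array, so the sign within either set was fixed in advance.

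**Figure D1:**
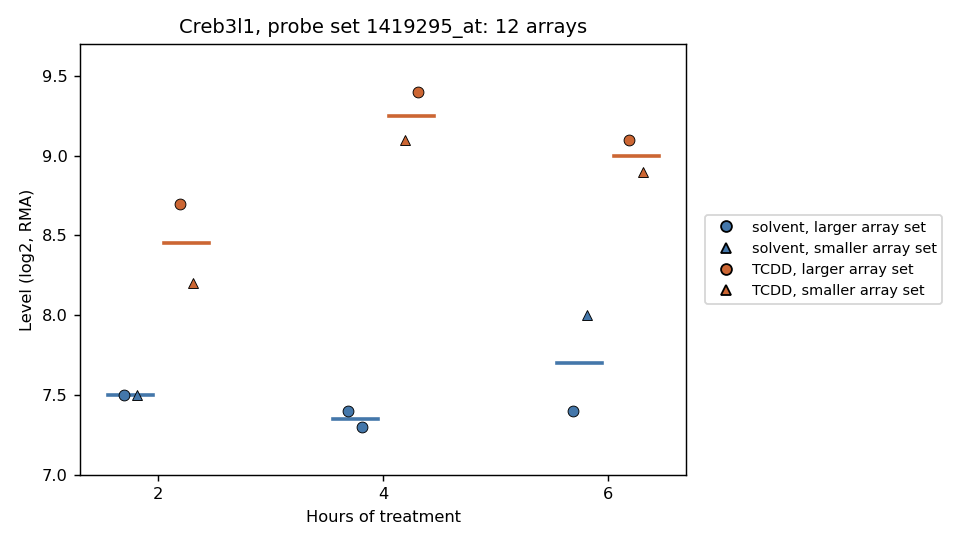
Creb3l1 level (log2 signal, vertical axis) on each of the 12 arrays by hours of exposure, with solvent and TCDD apart, points for arrays, triangles for those of the smaller array set and short lines for the mean of 2. The TCDD arrays lie between 8.2 and 9.4 and the solvent arrays between 7.3 and 8.0.

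In order of group mean, Creb3l1 was 7.35 in solvent at 4 h, 7.50 in solvent at 2 h, 7.70 in solvent at 6 h, 8.45 with TCDD at 2 h, 9.0 with TCDD at 6 h and 9.25 with TCDD at 4 h. The pooled SD within groups was 0.25, and the 3 solvent means lay within steps smaller than that. The means with TCDD at 6 h and at 4 h also differed by no more than that spread. Among solvent arrays alone, a contrast that played no part in choosing the gene, Creb3l1 at 4 h differed from 2 h by -0.15 (limma adjusted p = 1) and at 6 h by 0.20 (limma adjusted p = 0.97).

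None of the other 6 measured genes passed the test in any comparison of TCDD with solvent. At a limma adjusted p under 0.05, 0 of their 11 tested probe sets were called at 2, 4 or 6 h, where 0.0189%, 0.0126% and 0.00631% of all 15844 were. The average over times also called 0 of the 11, and 0.0947% of all. An unadjusted p under 0.05 was also reached by 0 of the 11 in each of these, while 1.49%, 2.17%, 2.15% and 3.36% of all probe sets reached it. Their average effects ran from -0.20 to 0.12, with 2 above 0, 9 below and a median of -0.05, beside a median of 0 over all tested. Against backgrounds this small a count of 0 among 11 is no result about these genes, so each is given with its interval.

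**Figure D2:**
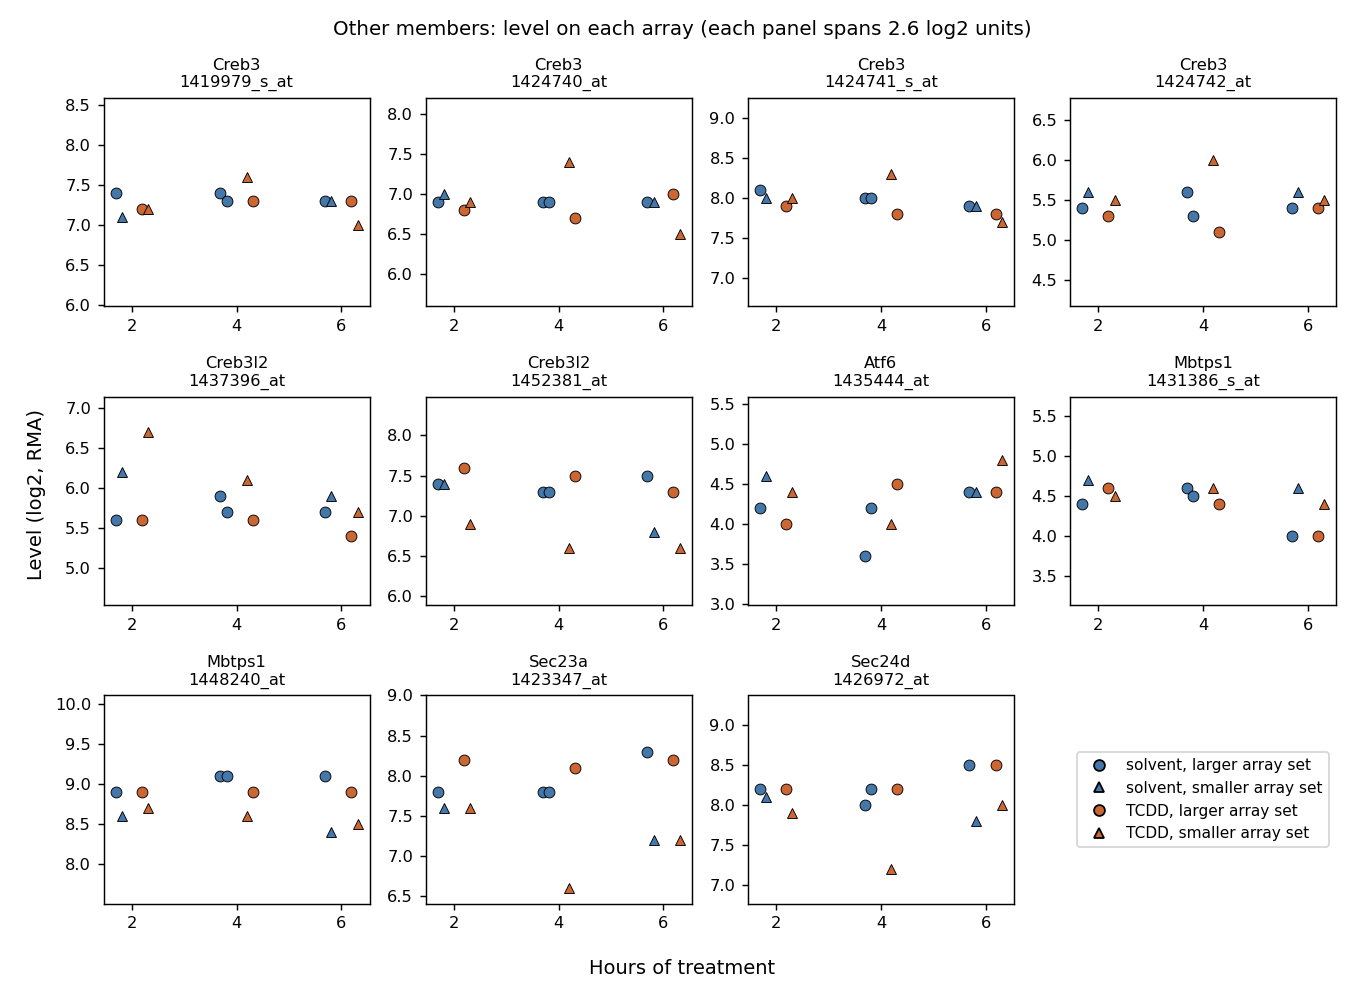
Log2 signal of the other tested member probe sets on each of the 12 arrays by hours of exposure, 1 panel a probe set, with colours for solvent and TCDD and triangles for the smaller array set. The ranges of solvent and TCDD points overlap in each panel.

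Creb3, or Luman, was read by 4 probe sets. Creb3 1419979_s_at ran from 7.1 to 7.4 in solvent, with a median of 7.30, and from 7.0 to 7.6 with TCDD, with a median of 7.25. Its average difference was -0.03 with a 95% interval of -0.27 to 0.20. Creb3 1424740_at was 6.9 to 7.0 in solvent and 6.5 to 7.4 with TCDD, so the TCDD arrays lay to both sides of a narrow solvent range. The same was seen for 1424741_s_at, at 7.9 to 8.1 against 7.7 to 8.3, and for 1424742_at, at 5.3 to 5.6 against 5.1 to 6.0. The average differences of these 3 were -0.03 with an interval of -0.34 to 0.28, -0.07 with an interval of -0.30 to 0.17, and -0.02 with an interval of -0.36 to 0.33. On all 4 the first 4 h TCDD array was the highest of the 12, at 7.6, 7.4, 8.3 and 6.0.

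Creb3l2, the closest relative of Creb3l1 in the family, was read by 2 probe sets. Creb3l2 1437396_at was 5.6 and 6.2 in solvent at 2 h, 5.9 and 5.7 at 4 h, and 5.7 and 5.9 at 6 h. With TCDD it was 5.6 and 6.7, then 6.1 and 5.6, then 5.4 and 5.7 at the same times. The groups overlapped, and the average difference was 0.02 with a 95% interval of -0.43 to 0.46, or -0.07 with the array set as a block. Creb3l2 1452381_at was 7.4 and 7.4, 7.3 and 7.3, and 7.5 and 6.8 in solvent, against 7.6 and 6.9, 6.6 and 7.5, and 7.3 and 6.6 with TCDD. Here 3 of the 6 TCDD arrays lay below 7.0, all from the smaller set, and the average difference was -0.20 with an interval of -0.67 to 0.27, or -0.10 with the block and an interval of -0.37 to 0.17. A change of the size seen for Creb3l1 lies outside both intervals.

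Atf6, which switches on chaperone genes when unfolded protein accumulates, was read by 1 probe set close to the filter. It was 4.2 and 4.6 in solvent at 2 h, 3.6 and 4.2 at 4 h, and 4.4 and 4.4 at 6 h. With TCDD it was 4.0 and 4.4, 4.0 and 4.5, and 4.4 and 4.8. The ranges overlapped and the average difference was 0.12, with an interval of -0.23 to 0.47. In solvent alone, Atf6 at 4 h differed from 2 h by -0.50 (limma adjusted p = 1).

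Mbtps1, the protease that makes the first cut, was read by 2 tested probe sets. Mbtps1 1448240_at was 8.9 and 8.6, 9.1 and 9.1, and 9.1 and 8.4 in solvent at 2, 4 and 6 h. With TCDD it was 8.9 and 8.7, 8.6 and 8.9, and 8.9 and 8.5. At 4 h both TCDD arrays lay below both solvent arrays, with a difference of -0.35 (limma adjusted p = 0.973), or -0.16 once the array set was a block, and at the other times the groups overlapped. The average difference was -0.12 with an interval of -0.44 to 0.21, and -0.05 with the block. Mbtps1 1431386_s_at was 4.0 to 4.7 in solvent and 4.0 to 4.6 with TCDD, with an average difference of -0.05 and an interval of -0.35 to 0.25, or -0.10 with the block.

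Sec23a, which with its Sec24 partner forms the inner COPII coat, was 7.8 and 7.6 in solvent at 2 h, 7.8 and 7.8 at 4 h, and 8.3 and 7.2 at 6 h. With TCDD it was 8.2 and 7.6, 6.6 and 8.1, and 8.2 and 7.2. The lowest array was the first at 4 h with TCDD, while its duplicate was above both 4 h solvent arrays. The average difference was -0.10 with an interval of -0.77 to 0.57, and with the array set as a block 0.05 with an interval of -0.30 to 0.39. The block narrowed the interval and turned the sign of a value near 0. The sets were found from values that include Sec23a, so the narrower interval is a description.

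Sec24d, the cargo-binding coat subunit, was 8.2 and 8.1 in solvent at 2 h, 8.0 and 8.2 at 4 h, and 8.5 and 7.8 at 6 h. With TCDD it was 8.2 and 7.9, 7.2 and 8.2, and 8.5 and 8.0. The first 4 h TCDD array was again the lowest. The average difference was -0.13 with an interval of -0.57 to 0.30, and with the block -0.05 with an interval of -0.32 to 0.23.

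**Figure D3:**
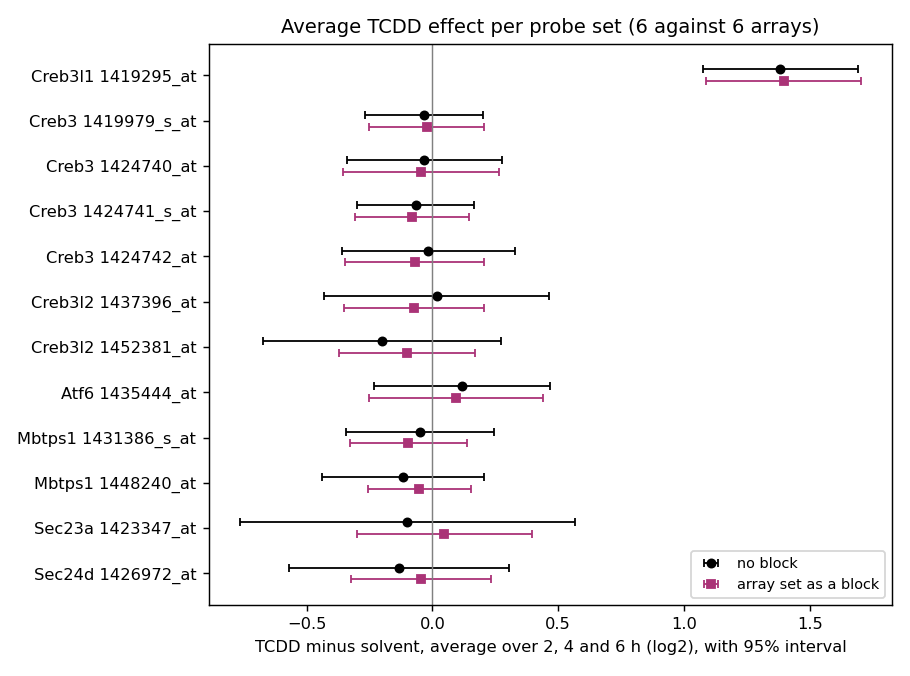
TCDD minus solvent on the log2 scale for each tested member probe set, averaged over times, with points for the estimates and bars for the 95% intervals of the limma fit, without a block (circles) and with the array set as a block (squares). Creb3l1 lies at 1.38 on average and the other 11 probe sets between -0.20 and 0.12 without the block; the Creb3l1 interval describes the spread and is no test, since the gene was chosen for this difference.

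Over all times, 1 of the 12 tested probe sets, Creb3l1, had all 6 TCDD arrays above all 6 solvent arrays, as did 0.246% of all tested probe sets. Creb3l1 was chosen for this difference on these arrays, so nothing is read from that count. The test of a change of the TCDD effect over time called 0 of the other 11, as it called 0% of all probe sets, and at an unadjusted p under 0.05 it called 0 of the 11 and 0.663% of all. Between solvent times limma called 0 of 12 member probe sets at 4 h against 2 h and 0 of 12 at 6 h against 2 h, where the background was 0% and 0%. At an unadjusted p under 0.05 these solvent contrasts also gave 0 of 12 each, with 1.81% and 2.82% over all.

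For several members other than Creb3l1, the difference between the array sets was larger in size than the average TCDD difference. The sets were found from the values of all probe sets, these included, so the differences are a description. With group means in the fit, Sec23a was lower in the smaller set by 0.88 ± 0.17 (SE), with 6.6 to 7.6 there and 7.8 to 8.3 in the larger set. Mbtps1 1448240_at differed by -0.38 ± 0.10, at 8.4 to 8.7 against 8.9 to 9.1. These 2 of the 12 lay wholly lower in the smaller set, as did 3.14% of all tested probe sets, and 0 of the 12 lay wholly higher, as did 1.98%.

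Sec24d differed between the sets by -0.52 ± 0.13, at 7.2 to 8.1 against 8.0 to 8.5. The Creb3l2 probe sets went opposite ways, 1452381_at with -0.60 ± 0.13 and 1437396_at with 0.54 ± 0.13, so they give no single direction for the gene. The Mbtps1 probe sets also parted, since 1431386_s_at differed by 0.28. Creb3 1424742_at differed by 0.32 ± 0.13, and the other Creb3 probe sets by -0.06 to 0.08. Creb3l1 differed by -0.08 ± 0.15, within its error. Without the first 4 h TCDD array, an alternative added after its low coat gene values were seen, the differences were -0.73 for Sec23a, -0.40 for Sec24d and -0.40 for Mbtps1 1448240_at.

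**Figure D4:**
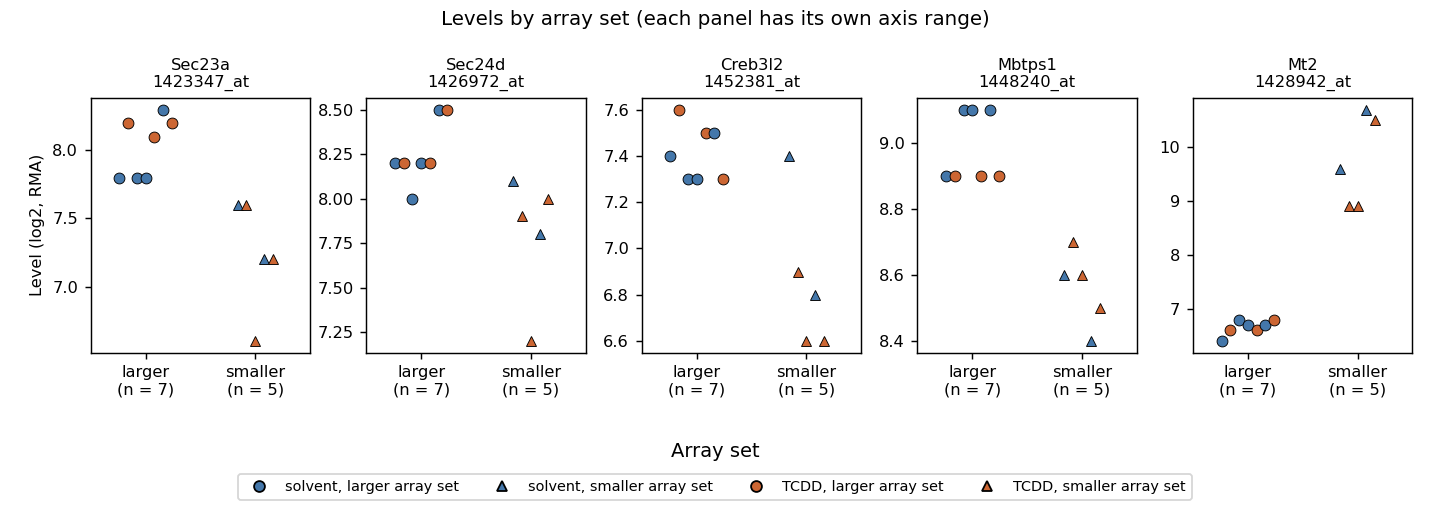
Log2 signal of 1 probe set each of Sec23a, Sec24d, Creb3l2, Mbtps1 and Mt2 on each array, by array set, with colours for solvent and TCDD. Sec23a runs from 6.6 to 7.6 in the smaller set and from 7.8 to 8.3 in the larger, with both colours on either side.

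Of the wider route, the COPII coat and ER exit site list had 16 tested genes, 7 above 0 and 7 below on the average over times, with a median of 0, or -0.01 and 0.02 under the other scalings and 0.04 with the array set as a block. The genes with the lowest p were Sec16a (0.17) and Tfg (0.18), which organise exit sites, Mia3 (0.20), which loads large cargo, and the coat subunit Sec24c (-0.12). For the other substrates and regulators of the proteases, 8 were tested, with a median of -0.06 and 6 below 0, beside 49.8% of all tested probe sets. Srebf1, the factor of lipid synthesis cut by the same enzymes, had -0.20 and its escort Scap -0.17. Creb3l3 had 0.07 and Atf6b -0.07. No list gene passed the limma test in any comparison, and adjusted p was 1 for each gene named from the lists on the average over times.

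Of 19 tested genes known as ATF6 targets, 15 were below 0 with a median of -0.10 on average, beside 49.8% of all tested probe sets below 0. With the array set as a block 16 were below 0 with a median of -0.06, beside 8410 of all 15844 and -0.01. At 2, 4 and 6 h the medians were 0.05, -0.25 and -0.10, and the 4 h median with the block was -0.08. Dnajc3 had -0.23, Herpud1 -0.22, Creld2 -0.15 and Edem1 -0.13, genes of chaperoning and of degradation from the endoplasmic reticulum. The chaperone Hspa5, named here for its role after its value was seen, had -0.02. The Golgi transport list had 13 tested genes and a median of 0, with Golga3 at -0.23, Kdelr2 at -0.20, Arf4 at 0.20 and Gorasp2 at 0.15.

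The collagen list, genes of collagen chains, folding and secretion, had 16 tested genes with 14 below 0 and a median of -0.07. Over all tested probe sets 49.8% were below 0. With the array set as a block 11 of the 16 were below 0 and the median was -0.04, beside 8410 of all 15844 and -0.01. With arrays centred on their median 12 were below 0, beside 6999 of all 15844. Plod2, a lysyl hydroxylase that prepares collagen for cross-linking, differed by -0.67 ± 0.23 and was the 1 list gene with an unadjusted p under 0.05 on that average (limma adjusted p = 1), and had -0.62 with the block. Its lowest array was the first 4 h TCDD array, at 6.6. Col5a2 had -0.23, Bgn -0.15 and Plod3 -0.13. Between the array sets, the collagen median was -0.26 with 13 of 16 lower in the smaller set, the ATF6 target median -0.14, the COPII median -0.13, the Golgi median -0.16 and the median of the other protease substrates and regulators -0.12, beside 0.02 and 46.3% below 0 over all tested. Without the first 4 h TCDD array the collagen median was -0.16 with 14 of 16 lower, the ATF6 target median -0.10, the COPII median -0.05, the Golgi median -0.05 and that of the protease list -0.14.

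**Figure D5:**
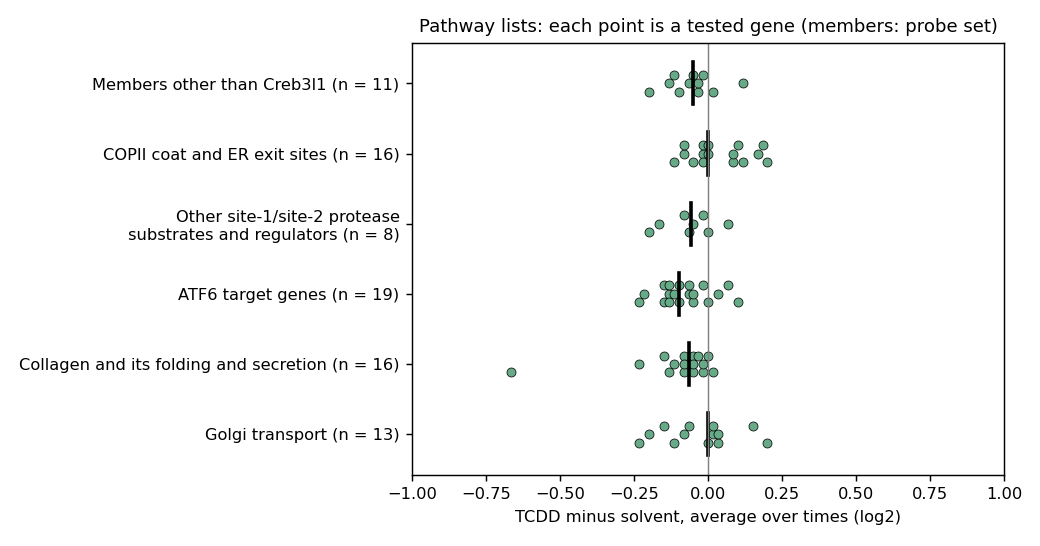
TCDD minus solvent averaged over times (log2) for each tested gene of the 5 lists and for the 11 member probe sets other than Creb3l1, with a line for each median. Medians lie between -0.10 and 0, and Plod2 at -0.67 is the lowest point.

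Across the 12 arrays, the genes whose levels followed Creb3l1 most closely were Spon2 (r = 0.957), Adh7 (0.957), Aldh3a1 (0.937), Cyp1a1 (0.934) and Cpox (0.927). The arrays share the treatment groups, which alone gives a high correlation to any gene that differs with TCDD, and no p is given. After group means were taken out, the correlations were 0.742 for Spon2, a matrix protein gene, 0.609 for Adh7, 0.482 for Aldh3a1, 0.018 for Cyp1a1 and 0.471 for Cpox. The genes running most opposite were Nupr1 (-0.856), Apcdd1 (-0.846), Atxn7l3b (-0.844), Mycl (-0.842) and Rras2 (-0.835), with -0.758, -0.430, 0, -0.08 and 0.07 after group means were taken out. No other member was among the 10. With 2 arrays a group, the values after group means were taken out rest on the difference of the pair in each of 6 groups. For Creb3l1 that difference was 0 in solvent at 2 h. The genes were also picked on these same arrays, so these values are a description.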

How the data were processed

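The authors deposited log2 values for 22690 probe sets on 12 arrays, and the submitters' processing notes name RMA; the software version and genome build are not given in the sources used here. All 12 deposited columns were used. Probe sets were named from the platform annotation: 64 controls were left out, and of 22626 others 20380 had 1 symbol, 691 several and 1555 none; 20351 matched RefSeq of GRCm38.p6. The test took the 15844 probe sets whose mean reached the 30th percentile, log2 3.98, covering 9433 genes. Group means were fitted to all 12 arrays with limma 3.58.1 in R 4.3.3, with Benjamini-Hochberg adjustment over all tested probe sets and a threshold of 0.05; the residual degrees of freedom were 6, or 5 with the array set as a block. The script was tested on simulated data. Array sets came from complete linkage on Euclidean distances, cut into 4 clusters. The largest cluster was the larger set and the remaining clusters were pooled as the smaller set. The members and gene lists were chosen with earlier results of these data known. Of each list, the 4 tested genes with the lowest p on the average over times were named, and the 5 genes most and least like Creb3l1 by correlation. Within times, deviations of arrays with the same replicate number correlated at 0.365, 0.159 and 0.705 at 2, 4 and 6 h. Over all 15 pairs of groups the correlations ran from -0.553 to 0.705, with 7 above 0.1. At 2 and 6 h the second arrays are also those of the smaller set, so this does not show that cultures were paired. The replicate block, which treats the numbers as pairs, was used as an alternative only. Alternatives were the block, the filter, the scaling, a test without moderation, and leaving out arrays or times. The number of arrays limits the precision.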

Additional observations from a re-analysis of the deposited data

How the results depend on the processing

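Under the 23 alternative settings the Creb3l1 difference kept its direction. As all 6 TCDD arrays lay above all 6 solvent arrays, leaving out arrays could not reverse it. The gene was also chosen for this difference, so the values under the settings are a description. Without the 4 h arrays its average was 1.13 in place of 1.38. Leaving out 1 array at a time, it ranged from 0.70 to 1.20 at 2 h, 1.75 to 2.05 at 4 h, 1.00 to 1.60 at 6 h and 1.28 to 1.48 on average. With a replicate block within each time, the average was 1.38 ± 0.14 and no call of any member changed. All 153 counts of called members under the alternatives were 0, and 6 of them had members at an unadjusted p under 0.05, at most 4. The most came at 4 h without the second TCDD array, where Sec24d was -0.90, Sec23a -1.20, and Creb3 1424742_at and 1424740_at 0.55 and 0.50. The lone TCDD array there was of the smaller set and both solvent arrays were of the larger. Treatment and array set therefore cannot be told apart in these values. Of 1471 single values over 68 results, all stayed on the same side of the threshold, and 86 values of 41 results changed sign. Over all tested probe sets the average over times called 15, and 46 with the array set as a block. The sets came from these same values, so the larger count is a description. The COPII median, 0, took either sign with the scaling. The median over all tested probe sets did so too, at -0.005 with quantile normalization again and 0.017 with arrays centred on their median. Where 1 array of a group was left out, the lone array was assumed to vary like the other groups. With 2 arrays a group, modest member changes could not be detected at single times.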
